A study of Caenorhabditis elegans with 17 samples.

Results

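The genes fib-1, nol-56 and mtr-4 were each knocked down by feeding RNAi in C. elegans, and the small RNAs of the animals were sequenced. These 3 target genes and skih-2, a relative of mtr-4, are described here across all 17 small RNA libraries of the study. They are 4 of the 20535 protein-coding genes with counts. The genes were chosen from the reads described here: each target from the antisense reads it carried in its own RNAi library, and skih-2 from its antisense reads in the mtr-4 RNAi library. Those values are therefore given as a description and with no test.

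When a worm takes up double-stranded RNA, Dicer cuts it into primary siRNAs, which guide an Argonaute protein to the matching mRNA. RNA-dependent RNA polymerases then copy the mRNA into many secondary siRNAs, which are antisense to it. Worms also make endogenous siRNAs against many of their own genes, and NRDE-3 is the Argonaute that carries secondary siRNAs into the nucleus of somatic cells. ERI-1 is an exonuclease needed for a class of endogenous siRNAs, and worms without it respond more strongly to RNAi. FIB-1 (fibrillarin) is the methyltransferase of the box C/D snoRNPs, the particles that methylate rRNA, and NOL-56 is a core protein of the same particles. MTR-4 is the RNA helicase that feeds RNA to the nuclear exosome, the complex that trims and degrades RNA from its 3′ end. SKIH-2 belongs to the same Ski2-like helicase family, whose yeast member Ski2 works with the exosome of the cytoplasm.

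All animals were grown at 20°C, and each condition had 1 library, so no difference between conditions has a replicate check. Total small RNA of L3 larvae was sequenced in 8 libraries: N2 wild type, dis-3(ust56), exos-1(ust57), eri-1(mg366), and eri-1(mg366) together with dis-3(ust56), with exos-1(ust57), with exos-10(ok2269), or with all of rrf-1(pk1417), rrf-2(ok210) and dis-3(ust56), called the quadruple mutant. DIS-3, EXOS-1 and EXOS-10 are parts of the exosome, and RRF-1 and RRF-2 are RNA-dependent RNA polymerases. Small RNAs bound to 3xFLAG::GFP::NRDE-3 were isolated from L3 larvae with anti-FLAG beads in 5 libraries, all in the eri-1(mg366) background: the control without another mutation, dis-3(ust56), exos-1(ust57), exos-10(ok2269) and the quadruple mutant. The ust57 allele is a deletion. The exos-1 gene had 1.70 and 1.65 sense reads per 1000000 sense protein-coding reads in the 2 total libraries labelled with it. In the other 6 the range was 3.21 to 28.7. The labelled libraries had only 2 and 1 such reads, and eri-1(mg366) also had 2. Counts this low cannot tell the genotypes of the total libraries apart. Among the NRDE-3 libraries, the one labelled with this gene had 18.3 (70 reads), against 20.1 (47 reads) in its control. The value was 4.78 (4 reads) in dis-3(ust56), 19.9 in exos-10(ok2269) and 18.6 in the quadruple mutant. Whether the label is right was not tested, so each library goes by its label here. The 4 RNAi libraries are total small RNA of eri-1(mg366) young adults fed the empty vector L4440 or the RNAi clone of mtr-4, fib-1 or nol-56. The labels name OP50 bacteria for all samples, whereas the methods of the study describe HT115 bacteria that carry the RNAi clones from the embryo onward. The RNAi and L3 libraries differ in stage, so levels were compared only within a set.

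The reads counted on transcripts ran from 5094172 to 11556168 per library in the total L3 set, from 7485478 to 11036220 in the NRDE-3 set and from 12155042 to 17155933 in the RNAi set. Levels are in RPM, reads per 1000000 of the normalization number used in the study, which leaves out sense rRNA and sense protein-coding reads. This number was only 1.95% of the reads in the NRDE-3 library from dis-3(ust56), or 145736 reads, so that the floor of 3 reads stood at 20.6 RPM there against 0.441 to 4.23 RPM elsewhere. Intervals are 95% intervals for counting error only. Where a ratio of the 4 genes is given with antisense protein-coding reads as denominator, the reads of the 4 genes are left out of that denominator.

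The fib-1 gene is on the minus strand of chromosome V from 15000651 to 15002223 in the WBcel235 annotation of Ensembl, with 1375 exonic bases. The nol-56 gene is on the minus strand of the same chromosome from 10350466 to 10352978, with 8 exons and 1624 exonic bases. The mtr-4 gene lies on the plus strand of chromosome IV from 9825694 to 9830620, with 18 exons and 3224 exonic bases. The skih-2 gene lies on the minus strand of chromosome IV from 11134658 to 11142364, with 4839 exonic bases.

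In each RNAi library the target carried more antisense reads than any other protein-coding gene. The fib-1 gene carried 520 antisense reads in the L4440 library, 472930 in the fib-1 RNAi library, 83 in the nol-56 RNAi library and 3233 in the mtr-4 RNAi library. For nol-56, the antisense reads numbered 218 on L4440, 193 on fib-1 RNAi, 338593 on nol-56 RNAi and 59 on mtr-4 RNAi. For mtr-4 they numbered 168 on L4440, 283 on fib-1 RNAi, 57 on nol-56 RNAi and 977851 on mtr-4 RNAi. In each case the highest library was the one named for the gene, and no other library reached 1% of its count. The nearest was fib-1 in the mtr-4 RNAi library, with 0.684% of the reads it had under its own RNAi.

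Relative to L4440, the antisense level was 743-fold higher for fib-1 in its own library (interval 682 to 811), 1048-fold higher for nol-56 (918 to 1202) and 3713-fold higher for mtr-4 (3192 to 4345). The target held 29.2% of all antisense protein-coding reads under fib-1 RNAi, 30.2% under nol-56 RNAi and 37.6% under mtr-4 RNAi, and the second gene had 35.2-fold, 20.4-fold and 39.1-fold fewer reads. The target reads were themselves 10.2%, 6.01% and 16.4% of the normalization number. The second gene was bath-20 under fib-1 and mtr-4 RNAi and Y47H10A.5 under nol-56 RNAi, and on L4440 the first gene, bath-20, had only 1.09 times the reads of the second, bath-45.

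**Figure D1:**
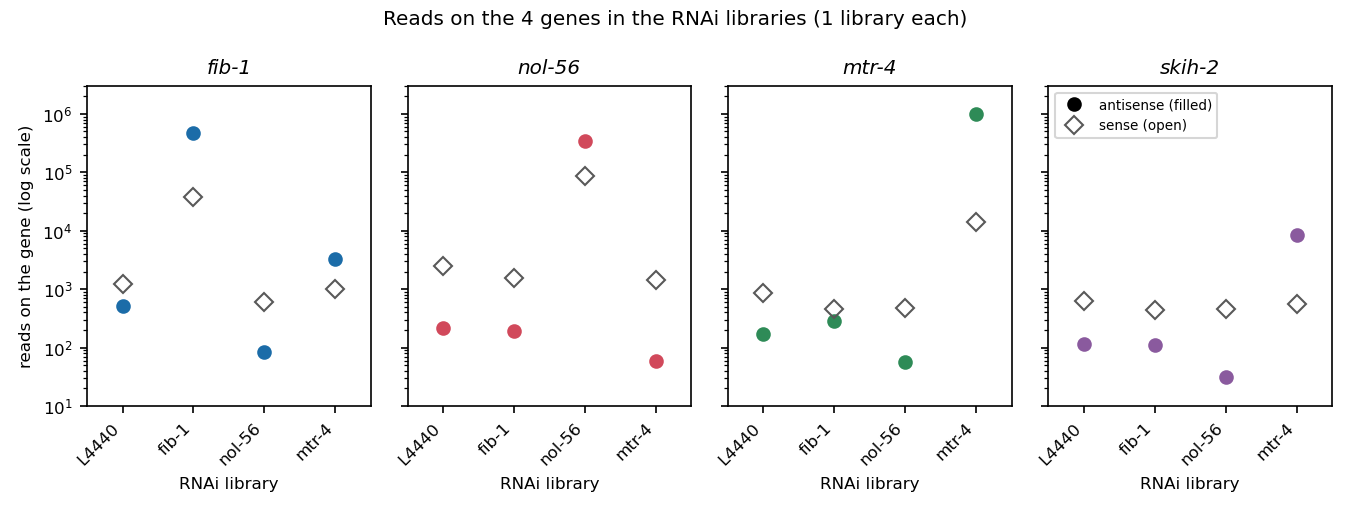
Sense reads (open diamonds) and antisense reads (filled circles) on fib-1, nol-56, mtr-4 and skih-2 in the 4 RNAi libraries, 1 library each, on a log axis. Antisense reads pass sense reads for each target in its own library (472930, 338593 and 977851 reads), and also for skih-2 and fib-1 in the mtr-4 RNAi library (8314 and 3233 reads).

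The balance of the strands differed among the targets. Antisense reads made up 92.5% of the fib-1 reads in the fib-1 RNAi library (exact binomial interval 92.5 to 92.6), 79.9% of the nol-56 reads in the nol-56 RNAi library (79.8 to 80.0) and 98.6% of the mtr-4 reads in the mtr-4 RNAi library (98.5 to 98.6). On L4440 these shares were 29.6% for fib-1, 8.06% for nol-56 and 16.2% for mtr-4. Sense reads on the targets also numbered more under their own RNAi. For fib-1 they went from 1239 on L4440 to 38142, for nol-56 from 2487 to 85289 and for mtr-4 from 868 to 14305. Per 1000000 sense protein-coding reads these are differences of 41.5-fold (39.2 to 43.9), 30.3-fold (29.1 to 31.5) and 17.9-fold (16.7 to 19.2). The order of the targets by sense difference was thus not their order by antisense difference: mtr-4 had the highest antisense ratio and the lowest sense ratio. In the files, a read on either strand of a target cannot be assigned to the fed double-stranded RNA or to the worm.

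The gene skih-2 was not a target of any library. It carried 115 antisense reads on L4440, 112 on fib-1 RNAi, 32 on nol-56 RNAi and 8314 on mtr-4 RNAi. Its level was highest in the mtr-4 RNAi library, at 1396 RPM against 30.3 on L4440, which is 46.1-fold (38.4 to 55.9), and lowest in the nol-56 RNAi library, at 5.68 RPM or 0.188 of L4440 (0.123 to 0.280). The skih-2 reads there were 0.85% of those on mtr-4. By its ratio to L4440, skih-2 stood in place 4 of the 9905 genes compared, and by its reads in place 23 in that library, against place 3159 on L4440. Per kilobase of exon, skih-2 had 288 RPM and mtr-4 50916 RPM.

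The skih-2 reads under mtr-4 RNAi were mostly antisense. Antisense reads were 93.8% of its reads (93.3 to 94.3), against 15.2% on L4440, 20.1% on fib-1 RNAi and 6.64% on nol-56 RNAi. Its sense reads were 552 under mtr-4 RNAi and 640 on L4440, a ratio of 0.936 per 1000000 sense protein-coding reads with an interval (0.834 to 1.05) that holds 1. In this skih-2 differed from the mtr-4 target itself, whose sense reads were 17.9-fold higher. The gene anr-13, an antisense RNA on the other strand that overlaps an exon of skih-2, had 14 antisense reads on L4440 and 11 under mtr-4 RNAi. How alike the sequences of skih-2 and mtr-4 are was not examined here.

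In the mtr-4 RNAi library fib-1 was higher as well. Its level was 543 RPM against 137 RPM on L4440, a ratio of 3.97 (3.61 to 4.36), at place 430 of 9905 genes and place 67 by reads. Antisense reads were 76.0% of the fib-1 reads there (74.7 to 77.3), against 29.6% on L4440, while its sense reads were 0.894-fold those of L4440 (0.822 to 0.972). The other snoRNP target did not share this, since nol-56 was at 9.90 RPM under mtr-4 RNAi against 57.4 on L4440, a ratio of 0.173 (0.127 to 0.231). The split of the fib-1 antisense reads between its 2 transcripts was 52.2% on the longer one in the mtr-4 RNAi library and 52.1% in the fib-1 RNAi library, but it was also 51.0% on L4440. Whether these fib-1 reads were made in the animals fed mtr-4 RNAi, or came from the fib-1 RNAi library or clone, was not tested.

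Past these pairs, the levels of the 4 genes are read against the whole library, because most genes were lower in RPM in the RNAi libraries than on L4440. The shares and medians of all genes in this paragraph are on the RPM scale only. They cannot be set beside the values of the 4 genes with another denominator. Under fib-1 RNAi, 4.94% of the 8976 genes that had 10 antisense reads or more in a library of the pair were more than 2-fold higher than on L4440 and 40.1% more than 2-fold lower, and the median log2 ratio was -0.83. On the RPM scale the target alone of the 4 genes passed 2-fold: nol-56 was at 0.723 of L4440 (0.593 to 0.882), mtr-4 at 1.38 (1.13 to 1.68) and skih-2 at 0.795 (0.608 to 1.04). All of them lay above the median gene. With antisense protein-coding reads other than those of the 4 genes as denominator, nol-56 was at 1.41, skih-2 at 1.55 and mtr-4 at 2.69, past 2-fold. Under nol-56 RNAi, 3.81% of 8901 genes were more than 2-fold higher and 80.4% more than 2-fold lower, with a median log2 ratio of -2.23. There fib-1 was at 0.108 of L4440 (0.0844 to 0.136), mtr-4 at 0.229 (0.167 to 0.311) and skih-2 at 0.188 (0.123 to 0.280). On the RPM scale these 3 lower genes were thus among a large majority. With antisense protein-coding reads other than those of the 4 genes as denominator, fib-1 was at 0.373, mtr-4 at 0.793 and skih-2 at 0.650. Only the first of these was then past 2-fold. Under mtr-4 RNAi, 12.9% of genes were more than 2-fold higher and 53.7% more than 2-fold lower, with a median log2 ratio of -1.12. Here 3 of the 4 genes, mtr-4, skih-2 and fib-1, were past 2-fold up, and nol-56 was past 2-fold down.

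**Figure D2:**
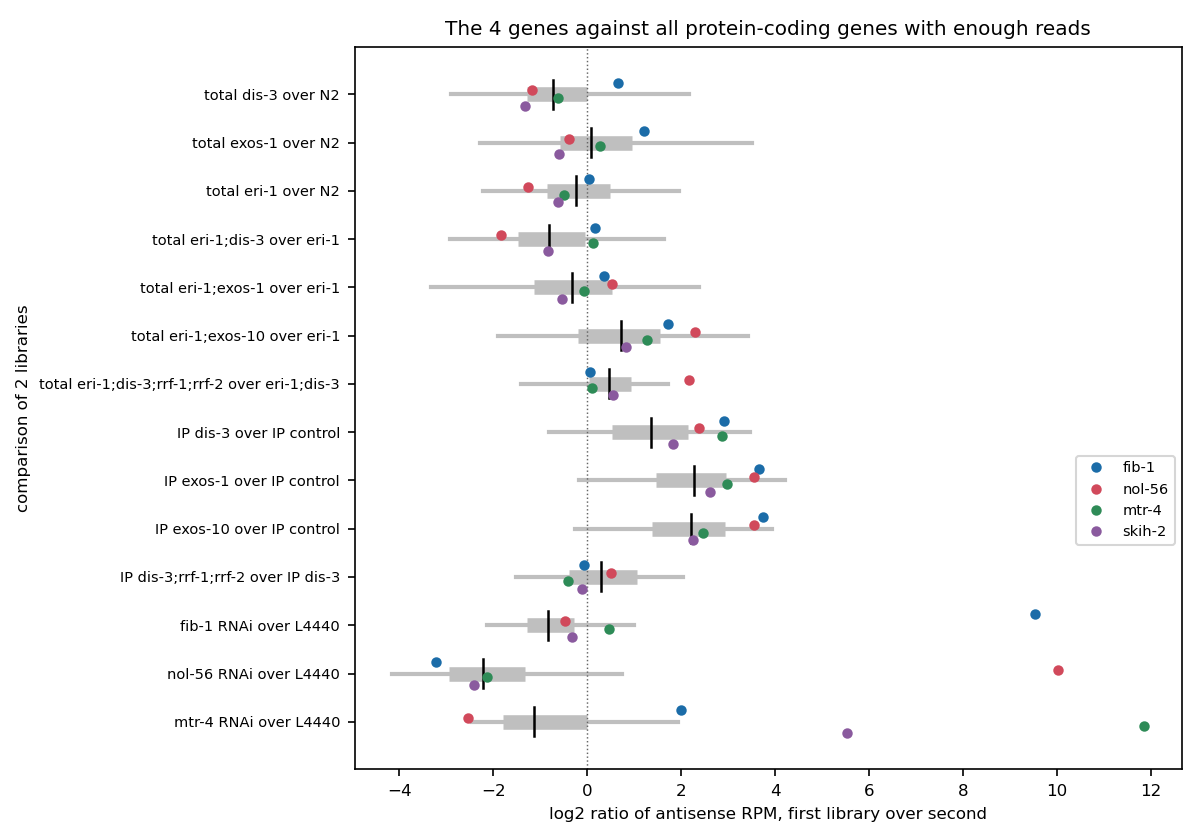
Log2 ratio of antisense RPM of the 4 genes (colored points) in 14 comparisons of 2 libraries, with the 5th to 95th percentile (thin line), the quartiles (thick line) and the median (tick) of all protein-coding genes that had 10 antisense reads or more in a library of the pair. The targets lie far outside the range of other genes in their own RNAi library, and so does skih-2 under mtr-4 RNAi (log2 ratio 5.53). Under mtr-4 RNAi fib-1 (1.99) and nol-56 (-2.53) also lie outside the percentile line, but close to its ends (1.94 and -2.46). In the L3 comparisons the 4 genes lie within it, except nol-56 in the quadruple mutant (2.17).

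Apart from the targets, few genes came near these ratios. Among genes that reached 100 antisense reads in the RNAi library or on L4440, with 1 read added to each count, the 5 highest genes under fib-1 RNAi were Y105C5A.13 (135-fold, from 0 to 164 reads), T12D8.9 (20.8-fold), gur-4 (10.1-fold), Y38E10A.14 (8.06-fold) and F08G2.5 (5.31-fold). Under nol-56 RNAi they were gur-4 (36.7-fold, from 8 to 489 reads), nkb-3 (12.2-fold), Y38E10A.14 (9.78-fold), W05H9.3 (5.79-fold) and T08B1.1 (4.83-fold). Under mtr-4 RNAi they were F31F7.1 (87.4-fold, from 2 to 410 reads), skih-2 (45.7-fold), T08B2.15 (30.8-fold), W05H9.3 (13.9-fold) and Y82E9BL.19 (12.0-fold). Of these genes skih-2 had the most antisense reads, both on L4440 and in the library concerned, and each of the others had 45 or fewer on L4440. The genes gur-4, Y38E10A.14 and W05H9.3 each stand in the lists of 2 RNAi libraries, which share the L4440 control.

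The genes on either side did not approach the level of the targets and had between 1 and 324 antisense reads in the library concerned. Of the 4 flanking genes of fib-1, rps-16, which encodes a ribosomal protein, had 94 antisense reads on L4440 and 93 under fib-1 RNAi, mut-15 had 529 and 249, and hrde-2 had 152 and 45. Next to nol-56, K07C5.3 had 321 and 91 reads and sluh-7 had 227 and 157. Next to mtr-4, catp-6 had 195 and 89 reads, whereas kin-21 had 1 and 14, a ratio of 8.93 with an interval from 1.36 to 378, and msp-81 had 3 and 17, a ratio of 3.61 (1.04 to 19.3). Next to skih-2, swsn-4 had 228 and 109 reads and F01G4.4 had 942 and 324.

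Within nol-56, however, the genes in 1 intron carried many reads of both strands under nol-56 RNAi. The introns of nol-56 hold 4 snoRNA genes on its own strand and 1 ncRNA gene on the other. The snoRNA gene K07C5.12, in intron 5 (chromosome V, 10351733 to 10351862), had 2 antisense reads on L4440, 1 on fib-1 RNAi, 1 on mtr-4 RNAi and 3572 on nol-56 RNAi, a ratio of 1205 (333 to 9955). Its sense reads numbered 11, 42, 20 and 1144 in the same order. The ncRNA gene K07C5.17 in the same intron (10351735 to 10351795, plus strand) had 661 antisense and 685 sense reads on nol-56 RNAi, against 7 and 2 on L4440. The other 3 snoRNA genes had 4 antisense reads or fewer in the nol-56 RNAi library, K07C5.11 in intron 1 with 4, and K07C5.10 in intron 6 and K07C5.18 in intron 7 with 0 each. High reads antisense to nol-56 were thus found in intron 5, on K07C5.12, and not on the snoRNA genes of introns 1, 6 and 7. Reads in the other introns were not measured, since they hold no gene with counts. K07C5.17 lies within K07C5.12 on the opposite strand, so a read that is antisense to the one can be sense to the other. The antisense reads of K07C5.17 are on the sense strand of nol-56, and the 2 genes are not separate places in the intron.

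**Figure D3:**
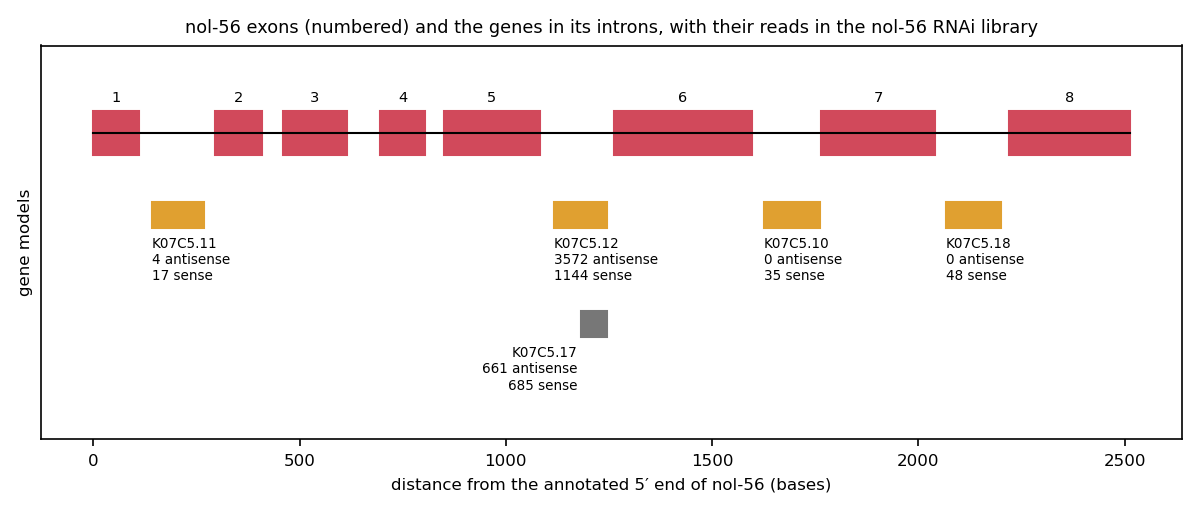
Map of nol-56 by distance from its annotated 5′ end in bases, with its 8 exons (red, numbered), the 4 snoRNA genes in its introns (orange, same strand) and the ncRNA gene K07C5.17 (gray, other strand), each with its reads in the nol-56 RNAi library. K07C5.12, in the intron between exons 5 and 6, had 3572 antisense reads, and the snoRNA genes of the other introns had 0 to 4.

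Genes of the same pathways, picked by role, did not follow the targets. Of the 6 other snoRNP proteins, 5 had enough reads under nol-56 RNAi and all 5 were more than 2-fold lower, as were 80.4% of all genes, with a median log2 ratio of -2.22 against -2.23 for all genes. The gene nol-58, whose protein pairs with NOL-56 in the C/D particle, was at 0.213 of L4440 (92 against 291 reads), and snu-13, whose yeast counterpart binds the snoRNA first, at 0.194 (35 against 122). Under fib-1 RNAi, 1 of the same 5 genes was more than 2-fold lower, snu-13 at 0.475, against 40.1% of all genes, and none was more than 2-fold higher, with a median log2 ratio of -0.53 against -0.83. Under mtr-4 RNAi, all 5 were more than 2-fold lower, against 53.7% of all genes, with a median log2 ratio of -1.57 against -1.12, so that fib-1 was the single measured gene of the list past 2-fold up. The pseudouridine synthase gene dkc-1 of the H/ACA particle was at 0.336 there (186 against 353 reads).

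Among the 4 other Ski2-like genes, all were more than 2-fold lower under mtr-4 RNAi, against 53.7% of all genes, with a median log2 ratio of -1.86 against -1.12 for all genes. The spliceosomal helicase gene snrp-200 was at 0.280 of L4440 (1848 against 4209 reads), helq-1, a DNA helicase of repair, at 0.229 (70 against 195), the DNA polymerase theta gene polq-1 at 0.480 (97 against 129) and Y54E2A.4 at 0.270 (566 against 1338). Of the Ski2-like genes other than the target, skih-2 was thus the one that was higher in this library. The counts for the other snoRNP and Ski2-like genes are on the RPM scale, and other denominators were not applied to them.

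In L3 larvae without RNAi all 4 genes carried endogenous antisense reads. By these reads in total small RNA, fib-1 stood in places 493 to 1332, mtr-4 784 to 1488, skih-2 1672 to 2591 and nol-56 1533 to 5757. The protein-coding genes with antisense reads numbered 9952 to 13118 per library. In total small RNA fib-1 had 28 to 167 antisense reads and 10.7 to 36.2 RPM (median 13.5), nol-56 3 to 45 reads and 0.775 to 13.6 RPM (median 3.72), mtr-4 21 to 95 reads and 7.51 to 20.0 RPM (median 9.35), and skih-2 12 to 58 reads and 3.10 to 9.69 RPM (median 5.03). Per kilobase of exon the medians over the 8 libraries were 9.85 RPM for fib-1, 2.90 for mtr-4, 2.29 for nol-56 and 1.04 for skih-2. The share of antisense reads on each gene ran from 18.1% to 60% for fib-1, from 1.51% to 16.3% for nol-56, from 20.8% to 60% for mtr-4 and from 13.6% to 45.1% for skih-2. For nol-56 most reads of the gene were sense in all 8 libraries.

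**Figure D4:**
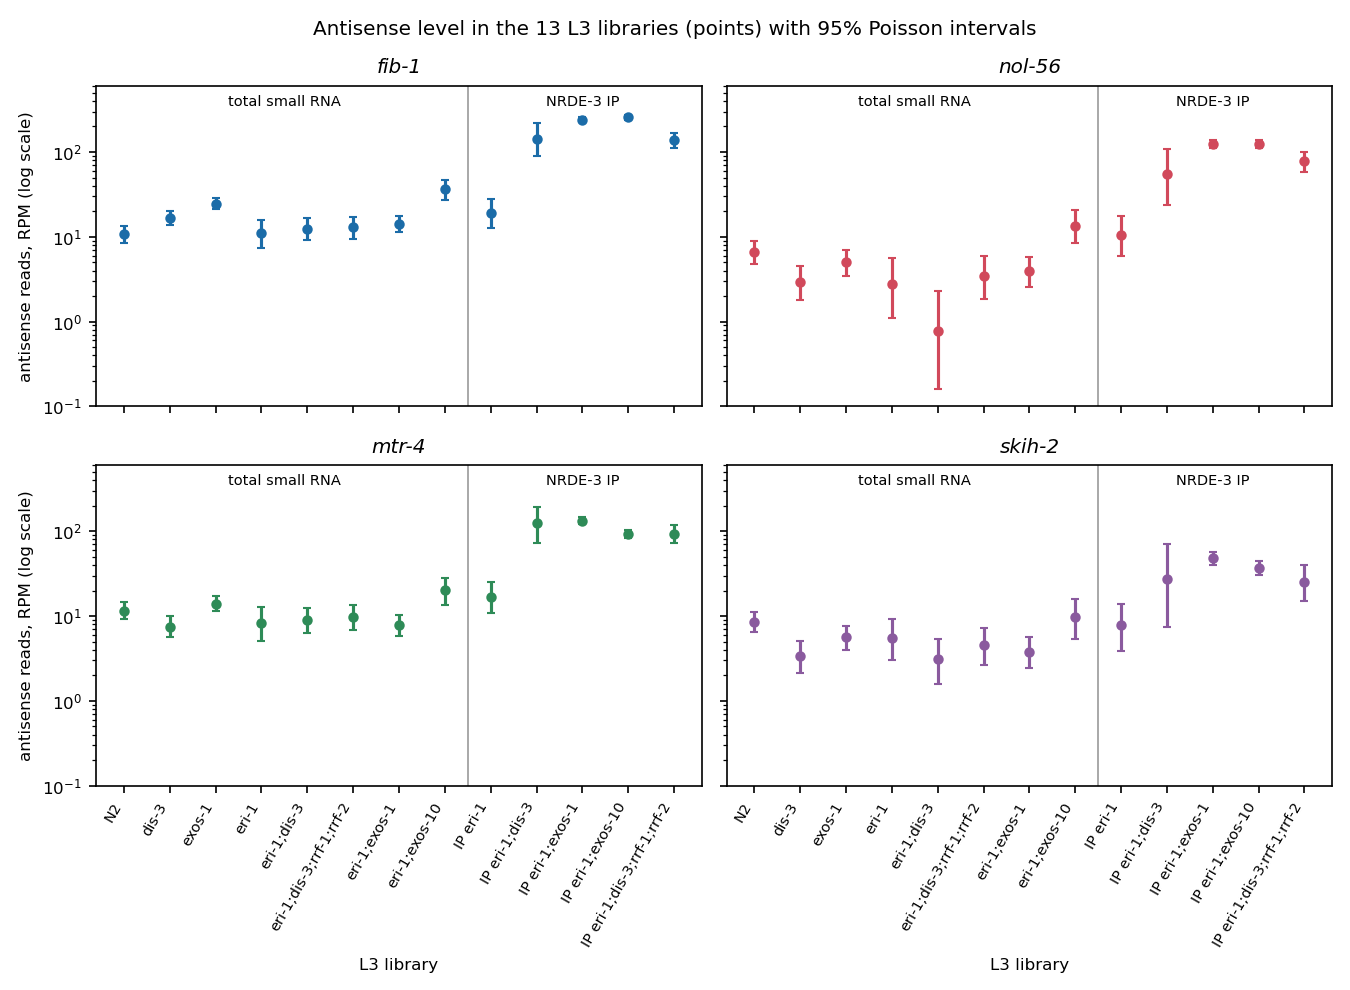
Antisense level of the 4 genes in the 13 L3 libraries in RPM on a log axis, with 95% Poisson intervals; total small RNA is left of the line and NRDE-3-bound small RNA right of it. In total small RNA fib-1 spans 10.7 to 36.2 RPM, and in the NRDE-3 libraries all 4 genes are lowest in the eri-1(mg366) control.

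The level of fib-1 was 10.7 RPM in N2, 24.7 in exos-1(ust57) and 16.8 in dis-3(ust56). Both mutants were above N2, by 2.30-fold (1.74 to 3.07) and 1.57-fold (1.16 to 2.13), though with miRNA reads as denominator the latter ratio was 0.949. The ratio of exos-1(ust57) was under 2-fold, at 1.89, per all reads counted and at 1.86 per antisense protein-coding reads. In the eri-1(mg366) background it was 11.0 RPM in the control, 12.4 with dis-3(ust56), 14.2 with exos-1(ust57) and 36.2 with exos-10(ok2269). The first 2 intervals held 1, and the last ratio was 3.29 (2.05 to 5.37). These ratios moved with the denominator: that of exos-1(ust57) was 2.68 with miRNA reads and 2.52 with antisense protein-coding reads, that of dis-3(ust56) 1.96 with the latter, and that of exos-10(ok2269) was under 2-fold with all reads counted. Ordered by level, 5 of the 7 neighbouring pairs of total L3 libraries had an interval that held 1 for fib-1, and the 2 pairs apart were dis-3(ust56) below exos-1(ust57), and the latter below the double mutant of eri-1(mg366) and exos-10(ok2269).

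The other 3 genes did not share the levels of fib-1 in the mutants of the N2 background. In dis-3(ust56), nol-56 was at 2.95 RPM against 6.61 in N2 (0.445-fold, 0.249 to 0.770), skih-2 at 3.39 against 8.52 (0.397-fold, 0.234 to 0.654) and mtr-4 at 7.51 against 11.6 (0.647-fold, 0.446 to 0.932). In that comparison, 2 of the 4 genes were more than 2-fold lower in RPM, where 35.5% of the 6386 genes were, and the median log2 ratio was -0.73. Per all reads counted nol-56 was at 0.546, and per antisense protein-coding reads at 0.531, so not past 2-fold. On these scales skih-2 stayed past it, at 0.487 and 0.474. With miRNA reads as denominator mtr-4 passed it as well, at 0.392. In exos-1(ust57) only fib-1 was more than 2-fold higher in RPM, against 24.7% of genes, and the intervals of the other 3 genes held 1. In eri-1(mg366) only nol-56 was more than 2-fold lower than in N2, at 0.416 (0.158 to 0.930, 7 against 45 reads), against 21.0% of genes.

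In eri-1(mg366);exos-10(ok2269) all 4 genes had their highest total L3 level in RPM. Per 1000000 of all reads counted they did not, with fib-1 at 8.82 there against 14.7 in dis-3(ust56), and nol-56 at 3.31, mtr-4 at 4.88 and skih-2 at 2.36 against 4.72, 8.28 and 6.08 in N2. Relative to eri-1(mg366), nol-56 was at 4.93 (2.02 to 13.7), mtr-4 at 2.43 (1.35 to 4.44) and skih-2 at 1.76 (0.792 to 3.94). With fib-1, 3 of the 4 genes were more than 2-fold higher, but so were 41.6% of 4063 genes, with a median log2 ratio of 0.72. Per all reads counted, only nol-56 was past 2-fold, at 2.41, and mtr-4 was at 1.18 and skih-2 at 0.859. The normalization number was the lowest of the total L3 set there, at 1548301. In the quadruple mutant, nol-56 was the 1 gene more than 2-fold higher than in eri-1(mg366);dis-3(ust56), against 21.1% of genes, with 13 against 3 reads and a ratio of 4.50 (1.24 to 24.6). For fib-1 the counts were 48 and 48, for mtr-4 36 and 35 and for skih-2 17 and 12, so a difference in these 3 genes was not detectable at this depth.

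Antisense reads on all 4 genes were found in the NRDE-3 libraries. The study describes NRDE-3 as lacking siRNA ligands in the eri-1 mutant, which is the control here. Whether the reads of the control were bound to NRDE-3 or were background of the isolation was not tested. In the eri-1(mg366) control the NRDE-3 library held 27 antisense reads on fib-1, 15 on nol-56, 24 on mtr-4 and 11 on skih-2, and in exos-10(ok2269) it held 753, 365, 274 and 109. The library labelled exos-1(ust57) held 680, 348, 376 and 135. The levels in the control were 19.1, 10.6, 17.0 and 7.78 RPM, and those of exos-10(ok2269) were 256, 124, 93.1 and 37.0 RPM. The mutant libraries were thus above the control for each gene. The ratios of the library labelled exos-1(ust57) to the control were 12.6 for fib-1 (8.61 to 19.3), 11.6 for nol-56 (6.96 to 21.0), 7.86 for mtr-4 (5.20 to 12.4) and 6.16 for skih-2 (3.33 to 12.6). In dis-3(ust56) the counts were only 21, 8, 18 and 4, with ratios of 7.55, 5.18, 7.28 and 3.53, and the interval of skih-2 held 1. These 4 ratios of dis-3(ust56) depend on the denominator: per all reads counted they were 0.992, 0.680, 0.956 and 0.464.

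These differences were shared by most genes. All 4 genes were more than 2-fold higher in each of these 3 mutant libraries, but so were 61.2% of genes in dis-3(ust56), 81.9% in exos-10(ok2269) and 84.6% in the library labelled exos-1(ust57). Relative to the median gene, fib-1 was higher by 1.38 to 1.56 on the log2 scale over the 3 comparisons, nol-56 by 1.01 to 1.33, mtr-4 by 0.24 to 1.50 and skih-2 by 0.04 to 0.46. The 3 comparisons share the control library. With antisense protein-coding reads as denominator the fib-1 ratio was only 3.34 for the library with the exos-1(ust57) label, 2.90 for dis-3(ust56) and 3.88 for exos-10(ok2269). In the same order nol-56 was at 3.08, 1.99 and 3.38, mtr-4 at 2.08, 2.79 and 1.59, and skih-2 at 1.63, 1.36 and 1.38, so skih-2 was then past 2-fold in none of the 3. The other snoRNP genes were also above the median gene: all 6 were more than 2-fold higher in the library labelled exos-1(ust57), with a median log2 ratio of 3.15 against 2.28, and in exos-10(ok2269), with 3.12 against 2.22. Of the 4 other Ski2-like genes 3 were more than 2-fold higher in each, with medians of 2.14 and 2.59. Addition of rrf-1(pk1417) and rrf-2(ok210) to dis-3(ust56) gave NRDE-3 ratios between 0.754 and 1.41 for the 4 genes, with all intervals holding 1; per all reads counted, fib-1 was at 3.13, nol-56 at 4.66, mtr-4 at 2.49 and skih-2 at 3.05.

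Levels in the NRDE-3 libraries were also set against the total L3 library of the same mutations. The labels name the GFP::NRDE-3 transgene for the NRDE-3 libraries only, so the total library cannot be taken as their input. No library came from anti-FLAG beads with animals that lack the tag, so these ratios do not measure binding to NRDE-3. In the control, 2 of the 4 genes were more than 2-fold higher in the NRDE-3 library, nol-56 at 3.85 and mtr-4 at 2.06, against 38.3% of genes. With dis-3(ust56), fib-1, mtr-4 and skih-2 were more than 2-fold higher, against 77.1% of genes, and nol-56, with 8 and 3 reads, was below the minimum of 10 reads. With the library labelled exos-1(ust57) all 4 were, against 89.7%, with exos-10(ok2269) all 4, against 79.9%, and in the quadruple mutant all 4, against 83.1%. For nol-56 the ratio was the highest of the 4 genes in each of the 5 pairs, 31.3 for exos-1(ust57) (20.8 to 49.0) and 9.14 for exos-10(ok2269) (5.89 to 15.0). For skih-2 it was the lowest in each, 12.6 and 3.82 in the same libraries. Counting intervals of the genes overlapped in part, so these places are not firm. In the control they were 1.48 to 11.2 for nol-56, 1.10 to 3.88 for mtr-4 and 0.580 to 3.35 for skih-2. Per all reads counted, the ratios of the dis-3(ust56) pair were 0.461 for fib-1, 0.541 for mtr-4 and 0.351 for skih-2, that of mtr-4 in the control was 0.610 and that of skih-2 in the quadruple mutant 0.838. With antisense protein-coding reads as denominator, nol-56 was above 2-fold in all 5 pairs, at 2.33 to 12.1, the latter in the dis-3(ust56) pair with its 8 and 3 reads. The other 3 genes were not past it with exos-1(ust57), with fib-1 at 1.78, mtr-4 at 1.78 and skih-2 at 1.33, nor with exos-10(ok2269), at 1.81, 1.19 and 0.976. On that scale mtr-4 was at 1.59 in the control, fib-1 at 1.99 and skih-2 at 1.52 with dis-3(ust56), and skih-2 at 1.16 in the quadruple mutant.

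Sense reads of skih-2 set 2 of the NRDE-3 libraries apart. Per 1000000 sense protein-coding reads, skih-2 had 847 in dis-3(ust56) and 577 in the control, with 708 and 1348 reads, against 118 in exos-10(ok2269), 126 in the library labelled exos-1(ust57) and 111 in the quadruple mutant. In total small RNA of L3 larvae the range was 75.1 to 130. The antisense share of skih-2 was 0.562% in dis-3(ust56) and 0.809% in the control, against 6.27% to 21.9% in the other 3 NRDE-3 libraries. The sense reads of fib-1 were high in the control alone, at 668 per 1000000 against 232 to 341 in the other 4 libraries. The part of these sense reads in the antisense levels was not tested.

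The files split fib-1 into 2 transcripts. T01C3.7.2 has 5 exons and 1375 bases, and T01C3.7.1 has 4 exons and 1175 bases. T01C3.7.2 received 57.1% to 77.1% of the antisense reads in the 8 total L3 libraries, and 66.03% of their sum (62.2 to 69.7). It received 54.9% to 71.4% in the NRDE-3 libraries, and 51.0% to 52.2% in the 4 RNAi libraries, with 52.1% under fib-1 RNAi (52.0 to 52.3). The share of every total L3 library was thus above that of every RNAi library. The counting intervals of some still held the RNAi shares, as in eri-1(mg366) (37.18 to 75.54) and the quadruple mutant (47.35 to 76.05). These sets differ in stage, and how the counting divided reads that match both transcripts is not given in the sources used here.

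**Figure D5:**
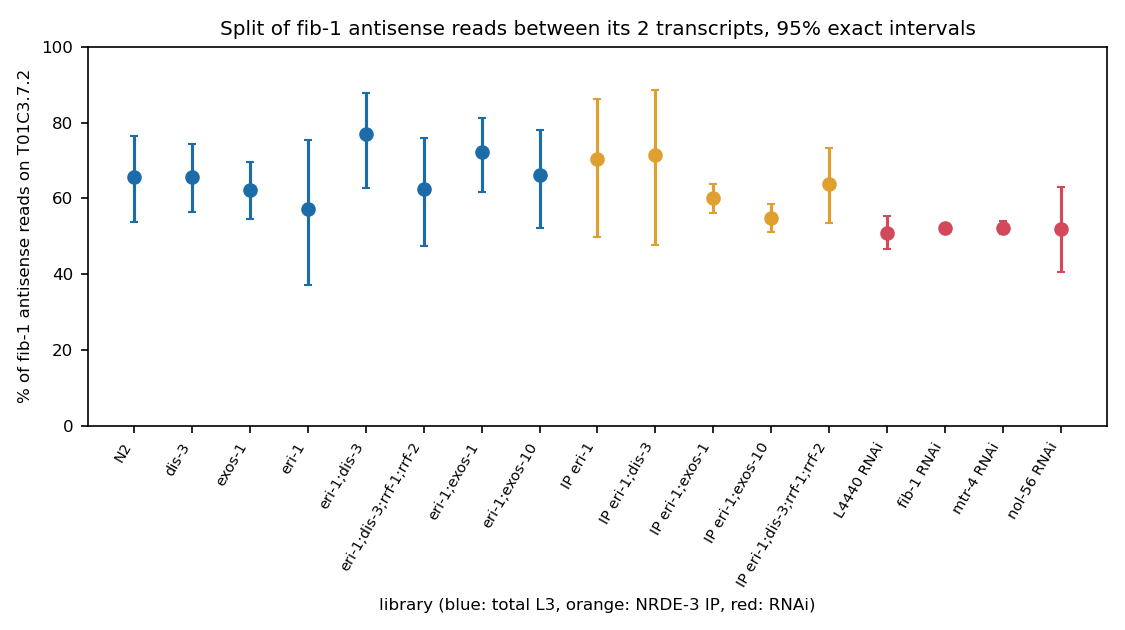
Share of the fib-1 antisense reads that was counted on the longer transcript T01C3.7.2 in the 17 libraries, in percent with exact 95% binomial intervals. The total L3 libraries (blue) lie between 57.1% and 77.1%, the NRDE-3 libraries (orange) between 54.9% and 71.4% and the RNAi libraries (red) between 51.0% and 52.2%.

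Over the 13 L3 libraries the genes whose antisense level was most like that of each gene were found among 6178 genes by Pearson correlation of log2(RPM + 1), as a description. For fib-1 they were rps-7 (r = 0.991), its neighbour rps-16 (0.990) and cyn-7 (0.989), the first 2 of them ribosomal protein genes. For nol-56 they were glp-4 (0.997), K10C3.5 (0.996) and ceh-92 (0.994). For mtr-4 they were mdt-26, chaf-1 and BE0003N10.1 (0.990 each), and for skih-2 nos-3 (0.994), parg-1 (0.989) and capg-1 (0.989). The median gene had r between 0.867 and 0.875, and all genes share the step from total to NRDE-3 libraries and the depth of each library. Among the 4 genes r was highest for nol-56 with skih-2 (0.981) and lowest for fib-1 with skih-2 (0.947).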

How the data were processed

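The authors cleaned the reads, mapped those of 18 to 30 nt (the labels give inserts of 18 to 40 nt) to the genome and the WS243 transcriptome with Bowtie2, and deposited sense and antisense read counts per transcript, not normalized. Headers are absent. Since 98.1% or more of the miRNA reads of every library stand in the first of the 2 columns, it was treated as sense. Up to 3 blank cells per library were set to 0. Counts were summed per gene, and 20231 of the 20535 protein-coding gene IDs matched the Ensembl release 115 annotation of WBcel235, from which positions were taken. The normalization number used the reads counted on transcripts in place of the genome total.

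Ratios have exact conditional binomial intervals, shares exact binomial intervals and levels exact Poisson intervals. With 1 library per condition no p-value was computed. For the background, genes needed 10 antisense reads in either library, and 1 read was added to each count. Computations used Python 3.11.15, numpy 2.4.6, pandas 2.3.3, scipy 1.17.1 and matplotlib 3.10.9. The ratios and their intervals were tried on simulated Poisson counts scaled by antisense protein-coding reads. That simulation covered neither variation between libraries nor genes with few reads.

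The 4 genes and the lists were chosen with earlier results of these data known. The genes named are these 4, the listed snoRNP and Ski2-like genes, the 2 protein-coding genes on either side of each, the 5 genes per RNAi library with the highest ratio to L4440 among those with at least 100 antisense reads, and the 3 most alike genes over the L3 libraries. Genes inside or overlapping the 4 genes were added after their values were seen. The 3 other denominators tried were all reads counted, sense miRNA reads, and antisense protein-coding reads without those of the 4 genes. Further alternatives were a normalization number without the 4 genes, 1 transcript per gene, other minimums and another pseudocount. The planned comparison of the mtr-4 and skih-2 sequences was not run.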

Additional observations from a re-analysis of the deposited data

Results flagged for a closer look

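For 24 pairs of ratios, the same mutation was compared with its control in 2 backgrounds (N2 and eri-1(mg366)) or in 2 preparations (total and NRDE-3-bound small RNA), and in 10 of them the ratios lay on opposite sides of 1. Each ratio compares 1 library with another, and the difference between the ratios was not tested.

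Between the backgrounds, mtr-4 was at 0.647 in dis-3(ust56) and 1.09 with dis-3(ust56) in eri-1(mg366), and at 1.21 in exos-1(ust57) and 0.955 with exos-1(ust57) in eri-1(mg366). For nol-56 the exos-1(ust57) ratios were 0.760 and 1.43. Of these only the ratio of mtr-4 in dis-3(ust56) has an interval that leaves out 1.

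Between the preparations, nol-56 was at 0.281 in total small RNA and 5.18 in NRDE-3-bound small RNA of dis-3(ust56), and skih-2 at 0.563 and 3.53. With exos-1(ust57), mtr-4 was at 0.955 and 7.86, and skih-2 at 0.688 and 6.16. The intervals of the total ratios hold 1 in all 4 cases. With antisense protein-coding reads as denominator, the total ratios with exos-1(ust57) were above 1 too, at 1.86 for mtr-4 and 1.34 for skih-2. For rrf-1(pk1417) and rrf-2(ok210) added to dis-3(ust56), fib-1 was at 1.04 and 0.949, mtr-4 at 1.07 and 0.754 and skih-2 at 1.47 and 0.925, with intervals that hold 1.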

How the results depend on the processing

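No paired analysis was possible because each condition had 1 library, and for the same reason no replicate could be left out. Of 298 alternative ratios of the 4 genes, 174 stayed within the counting interval of the reported value, 114 moved outside it and 10, from ratios past 2-fold, turned to the other side of 1. Among the others, 29 crossed 1 from a reported ratio within 2-fold. The 10 came from the NRDE-3 libraries. With all reads counted as denominator, the NRDE-3 ratios of dis-3(ust56) to the control were 0.992 for fib-1, 0.680 for nol-56, 0.956 for mtr-4 and 0.464 for skih-2. In the ratios of NRDE-3 to total libraries the same denominator gave 0.610 for mtr-4 in the control, 0.461 for fib-1, 0.541 for mtr-4 and 0.351 for skih-2 in dis-3(ust56), and 0.838 for skih-2 in the quadruple mutant, and antisense protein-coding reads as denominator gave 0.976 for skih-2 in exos-10(ok2269). The share of reads left in the normalization number differs between these libraries (1.95% to 33.2%).

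Under their own RNAi, fib-1 was at 836 with all reads and 597 with miRNA reads. It was at 1451 with antisense protein-coding reads without the 4 genes, and at 827 with a normalization number without them. For mtr-4 these were 4930, 3121, 6614 and 4451, and for fib-1 under mtr-4 RNAi 5.27, 3.33, 7.07 and 4.75. For nol-56, miRNA reads gave 600.1 and antisense protein-coding reads without the 4 genes 3628. For skih-2 under mtr-4 RNAi all reads gave 61.2 and antisense protein-coding reads without the 4 genes 82.2. With the longer transcript alone the fib-1 antisense share was 92.8%.

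The share of all genes past 2-fold in either direction, with antisense protein-coding reads as denominator, was 40.8%, 40.5% and 44.0% with NRDE-3 in dis-3(ust56), exos-1(ust57) and exos-10(ok2269), 23.3% under fib-1 RNAi and 46.9% under nol-56 RNAi. For the addition of rrf-1 and rrf-2 it was 12.3% with at least 100 reads in total small RNA and 86.1% with all reads in NRDE-3. A pseudocount of 0.5 read gave median log2 ratios of -0.30 for eri-1(mg366) over N2, and in NRDE-3 1.23, 2.41, 2.38 and 0.52 for dis-3(ust56), exos-1(ust57), exos-10(ok2269) and the addition of rrf-1 and rrf-2. The cause of these shifts was not tested.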
